A study of Arabidopsis thaliana with 4 samples.

Results

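The Flowering Locus C (FLC) clade, Short Vegetative Phase (SVP), Frigida (FRI), Vernalization Insensitive 3 (VIN3) and Suppressor of Overexpression of Constans 1 (SOC1) make up a group of 10 flowering time genes of Arabidopsis thaliana. They were taken from the deposited table by their gene identifiers, keeping gene models that hold an annotated transcript. The 10 genes lie in 9 of the 36251 gene models of the table, because MAF2 and MAF3 share a model. The RNA came from soil-grown seedlings 2 weeks old, kept in long days at 22 °C. The line Another Col-0 was set against the line SALK Col-0, with 2 biological replicates of each and 4 libraries in all. Both lines are labelled wild type and belong to the Columbia accession, and the study's title describes them as reproduced apart from each other. The labels name no mutation, treatment or cold period for either line, and do not say how the biological replicates were raised, so the p-values below measure the spread between these libraries, which may be partly technical.

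FLC encodes a MADS-box transcription factor that represses flowering, and its relatives FLM (also called MAF1) and MAF2 to MAF5 encode close paralogs with largely the same kind of activity. FLC and FLM proteins bind DNA together with SVP, another MADS-box repressor, and repress FT in leaves and SOC1 in leaves and the shoot apex, while SOC1 itself promotes flowering. FRI raises FLC transcription, and Col-0 carries a loss-of-function allele of FRI, which keeps FLC low and the plants early flowering. VIN3 is induced by prolonged cold and takes part in the silencing of FLC by Polycomb proteins.

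The coding starts of the 6 clade genes are given to show how alike the genes are over the length of a sequencing read, 101 bases. They are the first 101 bases of the MADS box, read from the RefSeq TAIR10.1 genome, with the bases that differ from FLC in capitals. MAF5 is shown from the start codon that aligns with the others, 21 bases into its longest annotated coding sequence.
FLC: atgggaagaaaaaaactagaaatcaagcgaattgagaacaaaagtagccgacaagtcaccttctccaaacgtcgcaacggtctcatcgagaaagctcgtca
FLM: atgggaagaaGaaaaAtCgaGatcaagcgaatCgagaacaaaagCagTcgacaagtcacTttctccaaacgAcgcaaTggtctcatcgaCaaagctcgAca
MAF2: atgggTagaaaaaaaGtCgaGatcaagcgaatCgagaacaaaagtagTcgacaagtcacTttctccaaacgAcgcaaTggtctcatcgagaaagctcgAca
MAF3: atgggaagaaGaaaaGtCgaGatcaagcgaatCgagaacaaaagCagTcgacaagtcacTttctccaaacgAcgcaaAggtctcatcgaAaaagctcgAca
MAF4: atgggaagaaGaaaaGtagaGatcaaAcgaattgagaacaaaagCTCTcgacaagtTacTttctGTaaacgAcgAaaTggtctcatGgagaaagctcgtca
MAF5: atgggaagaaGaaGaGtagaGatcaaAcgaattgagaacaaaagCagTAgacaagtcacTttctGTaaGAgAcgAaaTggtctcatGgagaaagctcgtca
The windows are chr5:3179239-3179339 on the minus strand for FLC and, on the plus strand, chr1:28955679-28955779 for FLM, chr5:25982415-25982515 for MAF2, chr5:25987527-25987627 for MAF3, chr5:25992310-25992410 for MAF4 and chr5:25997671-25997771 for MAF5. FLM and MAF3 differed at 3 of these bases and MAF2 differed from each of them at 5, while MAF4 and MAF5 differed from each other at 7. FLC differed from FLM, MAF2 and MAF3 at 10 to 12 bases and from MAF4 and MAF5 at 16 and 17. SVP and SOC1, outside the clade, differed from FLC at 39 and 36 bases of the same window. Over whole RefSeq transcripts, 0 of the 101-base stretches of FLM, MAF2, MAF3, MAF4, MAF5, SVP, VIN3 or SOC1 occurred in a transcript of any other gene. A full-length read without mismatches from an annotated transcript of a clade member thus matched no other member.

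Values are FPKM, read numbers scaled to transcript length and library size, as the authors deposited them, so levels of different genes can be set beside each other per length. Each value carries a lower and an upper limit from the authors' tool, whose level is not given in the sources used here. The depth of the libraries is unknown, since the table holds no read totals. The FPKM sums ran between 1228118 and 1590250 in Another Col-0 and between 1076877 and 1762918 in SALK Col-0. Among annotated models at 1 FPKM or more, the median was between 15.5 and 15.6 FPKM in Another Col-0 and between 15.2 and 15.3 FPKM in SALK Col-0. Markers of green tissue and root were present in both lines: RBCS1A, the Rubisco small subunit gene, had 8586 and 7825 FPKM in Another Col-0 and 6626 and 6665 FPKM in SALK Col-0, and the 4 root markers summed to 1398 and 1401 FPKM in Another Col-0 and 1328 and 1323 FPKM in SALK Col-0. This root sum was almost wholly PYK10, at 1364 and 1366 FPKM in Another Col-0 and 1299 and 1289 FPKM in SALK Col-0. CASP1, at 20.2 and 19.0 FPKM in Another Col-0 and 19.8 and 22.4 FPKM in SALK Col-0, overlapped between lines, as did THAS. Among the root markers the aquaporin gene TIP2;3 had 10.7 and 11.3 FPKM in Another Col-0, against 6.27 and 7.14 FPKM in SALK Col-0, without overlap. The seed storage protein gene CRA1 had 2.28 and 2.04 FPKM in Another Col-0, against 7.29 and 6.86 FPKM in SALK Col-0, also without overlap. The other seed markers were too low to be tested and went both ways. CRU3 had 0.210 and 0.208 FPKM in Another Col-0, against 0.138 and 0.138 FPKM in SALK Col-0. OLEO1 had 0.0940 and 0.0964 FPKM in Another Col-0, against 0.187 and 0.239 FPKM in SALK Col-0. Neither TIP2;3 nor CRA1 passed the test described below (limma, adjusted p = 0.202 and 0.199), and the part of tissue composition in the members' values was not tested. CAB1, a chlorophyll-binding protein gene, was listed at 0 in all 4 libraries, while the model holding its neighbour CAB2 had between 8178 and 8779 FPKM.

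The members spanned a wide range of levels, led by SVP, with VIN3 listed at 0. A listed 0 need not mean absent RNA in this table, where CAB1 is listed at 0 in green seedlings. By the mean of the 4 libraries the order was SVP at 128, the MAF2/MAF3 model at 76.0, SOC1 at 47.4, FLM at 39.1, FLC at 14.2, FRI at 7.94, MAF4 at 2.45 and MAF5 at 0.863 FPKM, with VIN3 left unranked. Across libraries the ranges of SVP and MAF2/MAF3, of MAF2/MAF3 and SOC1, and of SOC1 and FLM overlapped. From FLM down to MAF5 the ranges of neighbouring members did not overlap. FLC and FRI came near each other, with a lowest value of 10.9 FPKM for FLC and a highest value of 9.19 FPKM for FRI. Within each library SVP nonetheless exceeded MAF2/MAF3, by 1.47 to 1.64 times in Another Col-0 and by 1.80 to 1.86 times in SALK Col-0. In the same way SOC1 exceeded FLM in all 4 libraries, by 1.12 to 1.16 times in Another Col-0 and 1.20 to 1.34 times in SALK Col-0. The order of the other members by mean was the same in both lines.

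**Figure D1:**
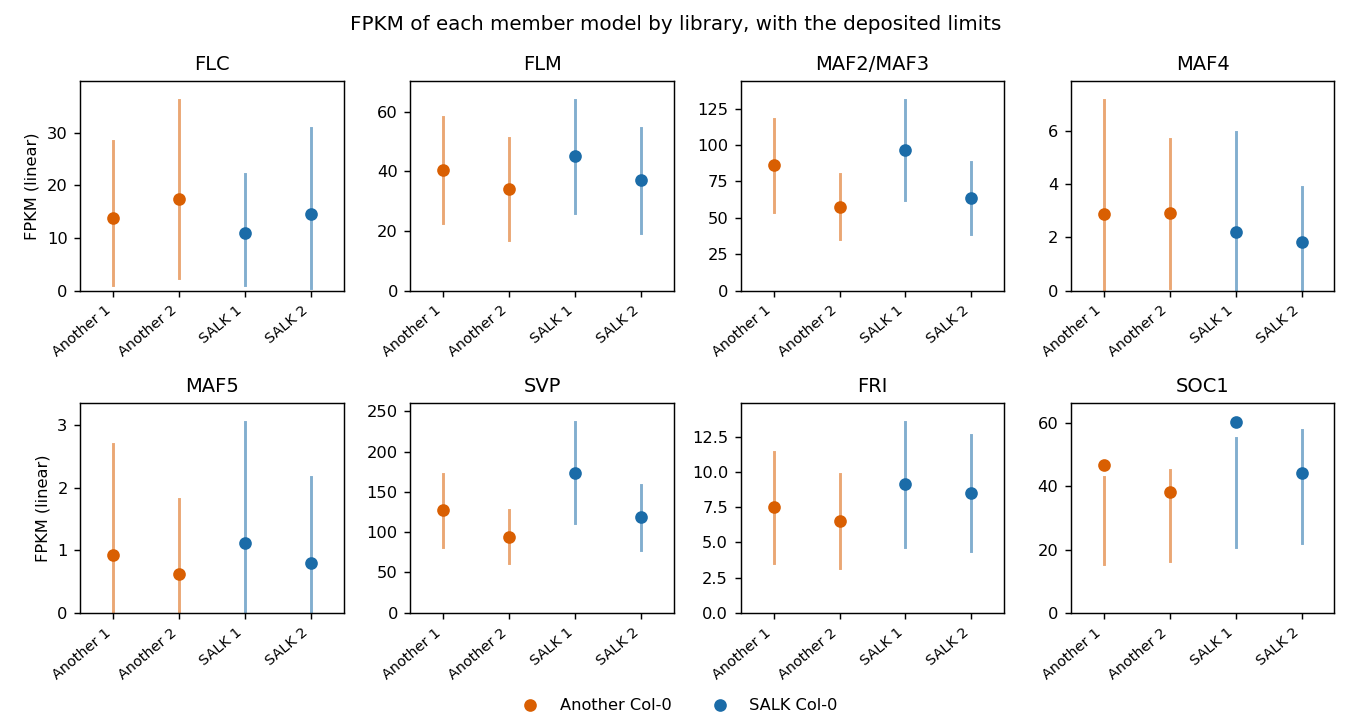
Deposited FPKM (points) with the deposited lower and upper limits (lines) of each member model, by library, on linear axes that start at 0, each panel with its own scale. Another Col-0 libraries are on the left and SALK Col-0 libraries on the right of each panel; VIN3 is not drawn because it is listed at 0. In SOC1 the replicate 1 points of both lines, 46.8 and 60.3 FPKM, lie above their own upper limits.

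No member passed the test for a line difference in the fit with the line as its only term. Values were compared as log2(FPKM + 1) with limma over the 20634 models that averaged 1 FPKM or more, and of the 9 member models 7 were tested, MAF5 and VIN3 lying under that minimum. At an adjusted p under 0.05, limma called 0 of the 7 higher in Another Col-0 and 0 lower, where the background over all models was 0.0% higher and 0.0% lower. At an unadjusted p under 0.05 there were also 0 members, against 16.7% of all models (limma). MAF4 and FRI lay just past that cut, with unadjusted p-values of 0.0526 and 0.0529 (limma). The smallest adjusted p over all models was 0.199. In 2 of the 7 members, MAF4 and FRI, the libraries of one line lay wholly on one side of the other, where 47.0% of all models tested had no overlap. Among annotated models only, the kind to which the members belong, 52.5% had no overlap. In a fit of those models alone, 21.6% had an unadjusted p under 0.05 (limma). The median difference of the 7 members was -0.15 on the log2 scale, beside 0.02 for all models. That of the members lay between -0.39, with Another Col-0 replicate 1 left out, and 0.0057, with SALK Col-0 replicate 1 left out, and was -0.02 with Another Col-0 replicate 2 left out and -0.35 with SALK Col-0 replicate 2 left out. With 2 libraries a line, the smallest two-sided p of an exact permutation test is 0.333. The limma test instead rests on a modelled spread, which joins each model's own spread between libraries with that pooled over models. A miss of the threshold here does not show that the lines had equal levels, and the 95% intervals given for the tested members show which differences the values leave possible.

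FLC (AT5G10140, chromosome 5, 3173497 to 3179489, minus strand) had 13.7 and 17.5 FPKM in Another Col-0, against 10.9 and 14.5 FPKM in SALK Col-0. The lines overlapped, and replicate 2 was the higher library of each line, by 1.27 times in Another Col-0 and 1.34 times in SALK Col-0. Within a replicate number FLC was 1.26 and 1.20 times higher in Another Col-0 than in SALK Col-0, so the step between replicates was as large as that between lines. The log2 difference was 0.28 ± 0.21 (SE), with a 95% interval of -0.40 to 0.96 (limma, adjusted p = 0.617). It ranged from 0.09, with SALK Col-0 replicate 1 left out, to 0.48, with SALK Col-0 replicate 2 left out, and was 0.45 and 0.12 without the first and the second Another Col-0 replicate. The deposited limits of FLC were wide, from 1.08 to 28.4 FPKM in replicate 1 of Another Col-0 and from 0.982 to 22.2 FPKM in replicate 1 of SALK Col-0.

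The FLC locus is transcribed on both strands, and the noncoding antisense transcripts, known as COOLAIR, take part in FLC regulation. RefSeq places a long noncoding RNA gene, AT5G01675, on the plus strand from 3173371 to 3179600, over the whole FLC model. No model of the deposited table carries that identifier, and none lies antisense to FLC there. Of the 1371 distinct 101-base stretches in FLC transcripts, 606 (44.2%) also occur in transcripts of AT5G01675. The labelled kit marks no strand by its standard protocol, so reads from these stretches cannot be told apart and the FLC values may hold both. The share of antisense reads in the FLC values was not tested.

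FLM (AT1G77080, chromosome 1, 28955533 to 28960189) represses flowering with SVP, and its balance of splice forms responds to temperature. It had 40.3 and 34.1 FPKM in Another Col-0, against 45.0 and 36.9 FPKM in SALK Col-0. The lines overlapped, and replicate 1 was the higher library of each. The log2 difference of FLM was -0.13 ± 0.16 (SE), with a 95% interval of -0.63 to 0.36 (limma, adjusted p = 0.778), and it was 0.0057 with SALK Col-0 replicate 1 left out. RefSeq annotates 11 coding transcripts of FLM, and the table holds 1 value for the model, so splice forms were not compared here.

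MAF2, MAF3, MAF4 and MAF5 stand in tandem on chromosome 5, and the deposited models do not follow the gene borders. MAF2, which keeps short cold spells from triggering flowering, and its neighbour MAF3 (AT5G65050 and AT5G65060) share a model from 25980232 to 25991382. This model starts 2022 bases before the RefSeq start of MAF2 and also covers most of a long noncoding RNA gene, AT5G09295 (25980056 to 25981153), so its value pools MAF2, MAF3 and transcripts of that upstream gene. MAF4 (25992230 to 25996235) follows after 847 bases and MAF5 (25997504 to 26002506) after a further 1268 bases.

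**Figure D2:**
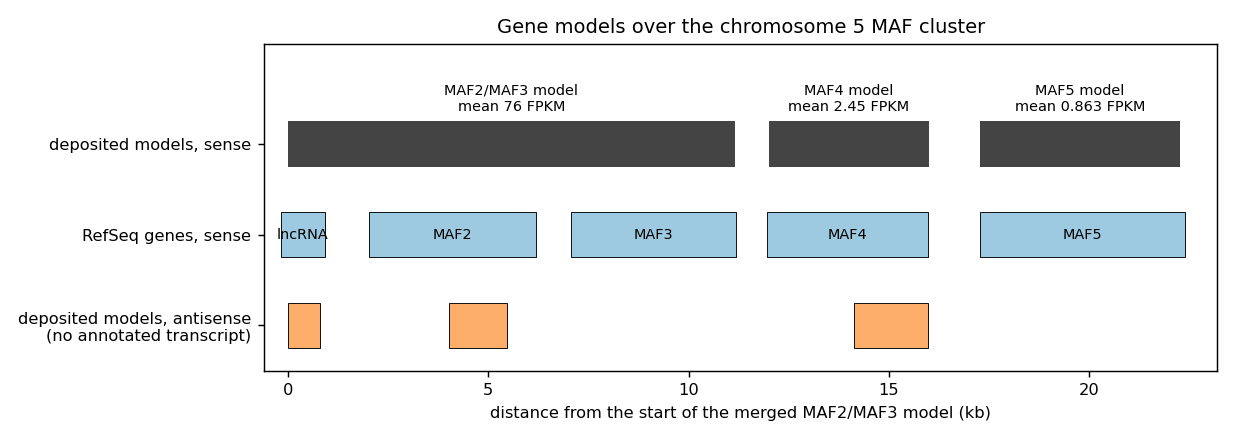
Map of the MAF cluster on chromosome 5, to scale, with the distance in kb from the start of the merged MAF2/MAF3 model on the horizontal axis. Dark bars are deposited sense models with their mean FPKM over 4 libraries, blue bars RefSeq genes on the sense strand, and orange bars deposited antisense models without an annotated transcript; the merged model covers MAF2, MAF3 and most of an upstream noncoding gene.

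The MAF2/MAF3 model had 86.2 and 57.6 FPKM in Another Col-0, against 96.7 and 63.5 FPKM in SALK Col-0. The lines overlapped, and replicate 2 had 0.668 of the replicate 1 value in Another Col-0 and 0.657 in SALK Col-0, a larger step than that between lines. The log2 difference was -0.15 ± 0.34 (SE), with a 95% interval of -1.24 to 0.93 (limma, adjusted p = 0.938), and it turned to 0.15 when SALK Col-0 replicate 1 was left out and to 0.13 when Another Col-0 replicate 2 was.

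MAF4 (AT5G65070) had 2.87 and 2.91 FPKM in Another Col-0, against 2.19 and 1.82 FPKM in SALK Col-0. Both Another Col-0 libraries were above both SALK Col-0 libraries, and the mean was 1.44 times that of SALK Col-0. The log2 difference was 0.38 ± 0.12 (SE), with a 95% interval of -0.01 to 0.76 (limma, adjusted p = 0.306). The deposited limits of MAF4 reached down to 0 in replicate 1 of both lines. MAF5 (AT5G65080) had 0.926 and 0.611 FPKM in Another Col-0, against 1.12 and 0.792 FPKM in SALK Col-0, and its lower limit was 0 in all 4 libraries. The lines overlapped, and MAF5 was not tested at this level. Across the cluster the level thus dropped from the merged MAF2/MAF3 model to MAF4 by 19.8 to 30.0 times in Another Col-0 and by 35.0 to 44.1 times in SALK Col-0.

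Models that the table places on the opposite strand lay over FLM and the MAF cluster, and 4 of them had values in replicate 2 of each line only. Since the kit marks no strand by its standard protocol, their strand is that of the deposited models, and their reads may be of either strand. A minus-strand model over the last part of FLM (chromosome 1, 28958808 to 28960114) was listed at 0 in replicate 1 and had 8.999 FPKM in replicate 2 of Another Col-0, and was listed at 0 in replicate 1 and had 12.3 FPKM in replicate 2 of SALK Col-0. The second FLM antisense model (28957383 to 28958805) was likewise at 0 in replicate 1 of both lines, with 2.48 FPKM in replicate 2 of Another Col-0 and 3.08 FPKM in that of SALK Col-0. Over MAF2 (25984249 to 25985689) the antisense model had 12.8 FPKM in replicate 2 of Another Col-0 and 14.2 FPKM in that of SALK Col-0, and it was listed at 0 in both replicate 1 libraries. At the 5′ end of the merged model (25980234 to 25981036), over the upstream noncoding gene, the antisense model had 64.4 FPKM in replicate 2 of Another Col-0 and 52.1 FPKM in that of SALK Col-0, again with 0 in both replicate 1 libraries. The MAF4 antisense model was low, at 0.301 and 0.0923 FPKM in Another Col-0 and 0.357 and 0.0970 FPKM in SALK Col-0. All but the MAF4 model were thus listed at 0 in replicate 1 of both lines. The same split was frequent among models without an annotated transcript: 1863 of 4129 (45.1%) were at 0 in both replicate 1 libraries and above 0 in both replicate 2 libraries, and 827 (20.0%) showed the opposite. In the sense models of FLM and of MAF2/MAF3, replicate 1 was higher than replicate 2 in both lines. This was not particular to them. Replicate 1 was also the higher in both lines in MAF5, SVP, FRI and SOC1, over which no unannotated antisense model lay. FLC went the other way in both lines, and MAF4 differed between lines. The part of these antisense models in the sense values was not tested.

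**Figure D3:**
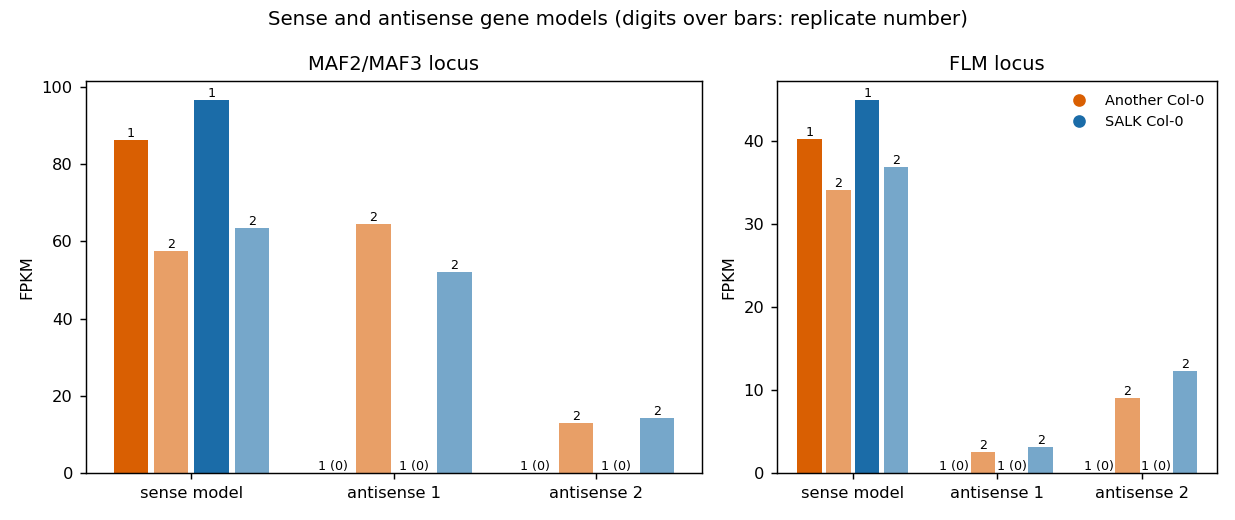
FPKM (bars, from 0) of the sense model and of the unannotated antisense models at the MAF2/MAF3 and FLM loci, with Another Col-0 in orange and SALK Col-0 in blue, pale bars for replicate 2 and the replicate number over each bar. All 4 antisense models are at 0 in replicate 1 of both lines and above 0 in replicate 2 of both lines.

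SVP (AT2G22540, chromosome 2, 9579724 to 9583893), the partner of FLC and FLM and the highest member, had 127 and 94.3 FPKM in Another Col-0, against 174 and 118 FPKM in SALK Col-0. SALK Col-0 replicate 1 was the highest library and Another Col-0 replicate 2 the lowest, and the lines overlapped. Within a replicate number SVP in Another Col-0 was 0.730 and 0.799 of SALK Col-0, while replicate 2 had 0.743 of replicate 1 in Another Col-0 and 0.679 in SALK Col-0. The log2 difference was -0.39 ± 0.29 (SE), with a 95% interval of -1.30 to 0.53 (limma, adjusted p = 0.611). It ranged from -0.66, with SALK Col-0 replicate 2 left out, to -0.11, with SALK Col-0 replicate 1 left out, and was -0.60 and -0.17 without the first and the second Another Col-0 replicate. The ratio of SVP to FLC was 9.24 and 5.39 in Another Col-0, against 16.01 and 8.12 in SALK Col-0, and it overlapped between the lines. In bulk seedlings, fewer cells that express a gene and less of its RNA per cell cannot be told apart.

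FRI (AT4G00650, chromosome 4, 268963 to 271503) had 7.50 and 6.53 FPKM in Another Col-0, against 9.19 and 8.52 FPKM in SALK Col-0. Both Another Col-0 libraries were below both SALK Col-0 libraries. The mean in Another Col-0 was 0.792 of that in SALK Col-0, and the log2 difference was -0.30 ± 0.10 (SE), with a 95% interval of -0.61 to 0.01 (limma, adjusted p = 0.306). In the Columbia reference the annotated FRI coding sequence is 945 bases long, or 314 codons before the stop, and the values describe RNA of this allele and not protein activity. An annotated antisense RNA gene, AT4G03675, shares 95 of the 2021 distinct 101-base stretches of FRI (4.70%). VIN3 (AT5G57380, chromosome 5, 23246395 to 23249504) was listed at 0 in all 4 libraries of plants grown without a stated cold period, with a deposited upper limit of 0.0161 FPKM in each. The model beside it, AT5G57370, which overlaps VIN3 by 26 bases on the other strand, had 38.0 and 27.8 FPKM in Another Col-0 and 32.6 and 25.1 FPKM in SALK Col-0.

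SOC1 (AT2G45660, chromosome 2, 18807538 to 18811047, minus strand), which the FLC and SVP proteins repress, had 46.8 and 38.1 FPKM in Another Col-0, against 60.3 and 44.3 FPKM in SALK Col-0. Replicate 1 was the higher library of each line and the lines overlapped. The log2 difference was -0.29 ± 0.22 (SE), with a 95% interval of -0.98 to 0.41 (limma, adjusted p = 0.622), and it ranged from -0.51, with SALK Col-0 replicate 2 left out, to -0.07, with SALK Col-0 replicate 1 left out. SOC1 was the only member with values outside their own deposited limits, which happened in 2 of the 36 member values. Its replicate 1 value lay above limits of 15.5 to 43.0 FPKM in Another Col-0 and above limits of 20.9 to 55.3 FPKM in SALK Col-0. Halfway between its limits SOC1 stood at 29.3 and 30.9 FPKM in Another Col-0, against 38.1 and 39.9 FPKM in SALK Col-0. By these midpoints the lines did not overlap and the replicates of each line lay close together, unlike the deposited values. Midpoints were not compared over all models, so this has no background share. For SVP, FLM, FRI and the MAF2/MAF3 model the deposited values lay between 0.999 and 1.01 times their midpoints. FLC lay at 0.904 to 0.938 times its midpoint, MAF4 at 0.735 to 1.004 times its midpoint and MAF5 at 0.671 to 0.736 times its own. Which of the deposited numbers describes SOC1 better was not tested.

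The 57 other flowering time genes listed by pathway gave the same outcome in the test. Of these, 51 were tested, and none of the 51 passed an adjusted p of 0.05 in either direction (limma), where the background was 0.0% in each direction. At an unadjusted p under 0.05 there were 8 of the 51, beside 16.7% of all models. Their values did not overlap between lines in 7 genes higher and 19 lower in Another Col-0, where the background over all models was 26.2% higher and 20.8% lower. The median difference was -0.14, beside 0.02 for all models.

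Upstream of FLC, the autonomous pathway genes, which lower FLC expression, had a median difference of -0.29 over 8 tested models, with 1 non-overlapping higher, 4 lower and 3 overlapping. Beside this, 26.2% of all models tested were non-overlapping higher and 20.8% lower. LUMINIDEPENDENS (LD) had 10.2 and 10.5 FPKM in Another Col-0, against 14.1 and 14.5 FPKM in SALK Col-0, and the RNA-binding protein gene FPA had 9.20 and 10.3 FPKM in Another Col-0, against 11.9 and 13.9 FPKM in SALK Col-0. The histone demethylase gene REF6 had 6.57 and 7.10 FPKM in Another Col-0, against 8.47 and 8.54 FPKM in SALK Col-0. FCA, another RNA-binding regulator of FLC, had 11.8 and 13.3 FPKM in Another Col-0, against 14.0 and 17.4 FPKM in SALK Col-0. Each of these had both Another Col-0 libraries below both SALK Col-0 libraries, with log2 differences between -0.43 ± 0.05 (SE) for LD and -0.28 ± 0.07 for REF6 and adjusted p-values between 0.202 and 0.434 (limma). FCA was at -0.45 when SALK Col-0 replicate 1 was left out and at -0.15 when SALK Col-0 replicate 2 was. FLK was uneven among replicates, at 157 and 35.0 FPKM in Another Col-0 and 345 and 40.4 FPKM in SALK Col-0.

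None of the FRI partners passed the test. Of 5 tested models, 0 were non-overlapping higher, 2 lower and 3 overlapping (all models: 26.2% higher, 20.8% lower). The median of -0.03 turned to 0.16 without SALK Col-0 replicate 1 and to 0.11 without Another Col-0 replicate 2. FRL2, a FRI-like gene, had 5.12 and 4.83 FPKM in Another Col-0, against 6.63 and 5.85 FPKM in SALK Col-0 (limma, adjusted p = 0.312), while FRL1, FES1 and FLX had differences between -0.12 and 0.04. SUF4, a zinc finger partner of FRI, had 97.9 and 38.9 FPKM in Another Col-0, against 75.3 and 53.2 FPKM in SALK Col-0, and its 95% interval of -1.85 to 1.78 leaves the size of its difference unknown. The chromatin activators of FLC include the Paf1 complex, the SWR1 complex and histone methyltransferases. Among them 1 of 10 was non-overlapping higher, 5 lower and 4 overlapping (median -0.12), beside 26.2% higher and 20.8% lower over all models. Of the SWR1 subunits, PIE1 had 5.47 and 5.68 FPKM in Another Col-0, against 6.24 and 6.16 FPKM in SALK Col-0, and SEF had 18.4 and 15.0 FPKM in Another Col-0, against 14.7 and 12.4 FPKM in SALK Col-0. The models holding ELF7 of the Paf1 complex and the methyltransferase gene ATX1, each of which also holds a second gene, had differences of -0.34 ± 0.21 and -0.13 ± 0.09 (SE). Without Another Col-0 replicate 1 these were -0.10 for ELF7 and -0.08 for ATX1, and without Another Col-0 replicate 2 they were -0.58 for ELF7 and -0.19 for ATX1. The difference of SEF ranged from 0.14 without Another Col-0 replicate 1 to 0.42 without Another Col-0 replicate 2. The smallest adjusted p of this list was 0.415 (limma).

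The vernalization and Polycomb genes, which silence FLC after cold together with VIN3, did not pass the test either. Single differences went both ways, from -0.19 for VRN2 to 0.13 for FIE. Their median difference was 0.0048 over 10 models, with 3 non-overlapping higher, 0 lower and 7 overlapping (all models: 26.2% higher, 20.8% lower). The Polycomb methyltransferase gene CLF had 7.47 and 8.29 FPKM in Another Col-0, against 7.08 and 7.13 FPKM in SALK Col-0. The Polycomb subunit genes FIE and MSI1 had differences of 0.13 ± 0.08 and 0.09 ± 0.06, and the methyltransferase gene SWN one of -0.17 ± 0.13 (SE). With single libraries left out, FIE ranged from 0.07 to 0.20, MSI1 from 0.06 to 0.12, CLF from 0.06 to 0.20 and SWN from -0.30 to -0.04. The extremes of FIE, CLF and SWN came from leaving out either Another Col-0 library, and those of MSI1 from leaving out either SALK Col-0 library. The smallest adjusted p was 0.505 (limma).

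**Figure D4:**
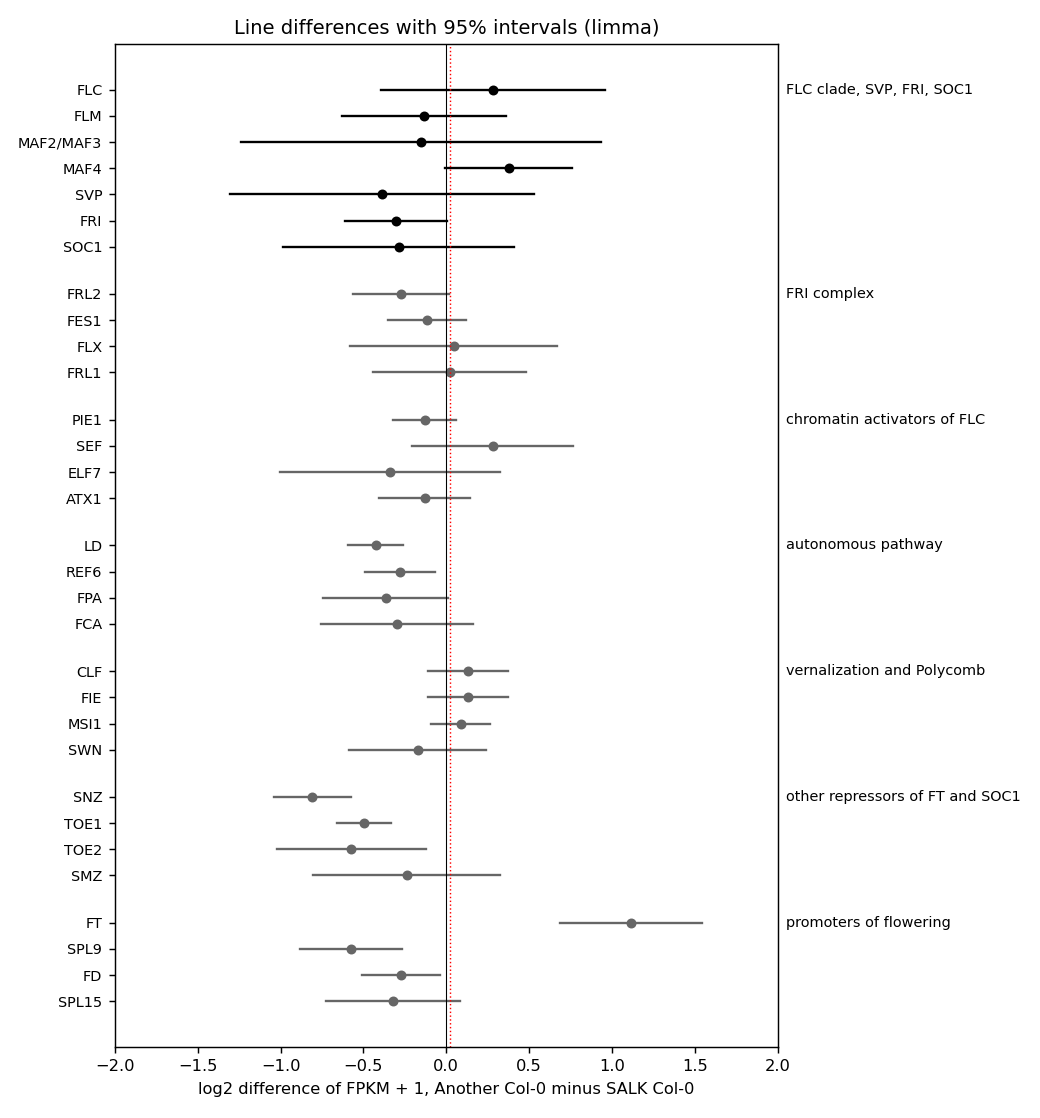
Differences of log2(FPKM + 1), Another Col-0 minus SALK Col-0 (points), with 95% intervals from limma (lines), for the 7 tested members in black and, in grey, up to 4 genes with the smallest p in each list of other flowering genes. The dotted red line is the median of all models tested, 0.02. The intervals of all 7 members include 0, and the largest difference shown is that of FT, 1.12.

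Beside the FLC clade, other repressors of FT and SOC1 include a family of APETALA2-like transcription factors, and 3 of these had lower values in Another Col-0 without passing the test. Of 6 tested repressors, 0 were non-overlapping higher, 3 lower and 3 overlapping (median -0.38), beside 26.2% higher and 20.8% lower over all models. SNZ had 5.05 and 4.80 FPKM in Another Col-0, against 9.03 and 9.77 FPKM in SALK Col-0. TOE1 had 18.3 and 17.7 FPKM in Another Col-0, against 25.5 and 26.0 FPKM in SALK Col-0, and TOE2 had 17.7 and 14.4 FPKM in Another Col-0, against 22.9 and 25.7 FPKM in SALK Col-0. In these 3 genes every Another Col-0 library was below every SALK Col-0 library. Their log2 differences were -0.81 ± 0.07, -0.50 ± 0.05 and -0.57 ± 0.14 (SE), with adjusted p-values of 0.199, 0.199 and 0.250 (limma), so none passed. SMZ, of the same family, overlapped and had a difference of -0.24 ± 0.18 (SE), which was -0.05 without Another Col-0 replicate 2 and -0.43 without Another Col-0 replicate 1.

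Downstream and beside the members, FT, the leaf-made signal that FLC and SVP repress, had 3.63 and 3.08 FPKM in Another Col-0, against 1.05 and 0.962 FPKM in SALK Col-0. Both Another Col-0 libraries were above both SALK Col-0 libraries, while SOC1, the other target, had lower means in Another Col-0 with overlap. The log2 difference of FT was 1.12 ± 0.13 (SE; limma, adjusted p = 0.202). Of the 12 tested genes of this list 2 were non-overlapping higher, 5 lower and 5 overlapping (all models: 26.2% higher, 20.8% lower). The median was -0.27, and it lay between -0.37 and -0.07 when single libraries were left out, at -0.07 without SALK Col-0 replicate 1 and -0.08 without Another Col-0 replicate 2. SPL9 and SPL15, which promote flowering with age, had 2.35 and 2.63 FPKM and 1.32 and 1.45 FPKM in Another Col-0, against 4.06 and 4.33 FPKM and 1.92 and 2.03 FPKM in SALK Col-0. FD, the partner of FT at the apex, had 7.28 and 6.73 FPKM in Another Col-0, against 8.39 and 8.97 FPKM in SALK Col-0. Their differences were -0.58 ± 0.10, -0.32 ± 0.13 and -0.27 ± 0.07 (SE), with adjusted p-values between 0.210 and 0.362 (limma). The floral identity genes LFY and AP1 were at 0.190 FPKM or less in all 4 libraries. Of this list LFY, AP1, TSF and AGL71 were too low to be tested. Each was higher in both Another Col-0 libraries than in either SALK Col-0 library. AGL72 was listed at 0 throughout.

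Floral organ markers, like FT, summed to higher values in Another Col-0. This sum was carried by SEP3 and PI and did not describe every marker. The 7 flower markers summed to 47.4 and 40.4 FPKM in Another Col-0, against 22.4 and 16.8 FPKM in SALK Col-0. SEP3 had 35.7 and 30.1 FPKM in Another Col-0, against 17.2 and 12.2 FPKM in SALK Col-0, and PI had 9.62 and 8.42 FPKM in Another Col-0, against 3.21 and 2.86 FPKM in SALK Col-0. SHP1 overlapped, with 1.43 and 1.29 FPKM in Another Col-0 and 1.53 and 1.32 FPKM in SALK Col-0, and none of these 3 tested markers passed (limma, adjusted p = 0.220 for SEP3, 0.199 for PI and 0.996 for SHP1). AP3, AG, SEP1 and SEP2 were under 0.4 FPKM in all libraries and were not tested. AP3 and AG were higher in both Another Col-0 libraries than in either SALK Col-0 library. SEP1 was lower in both, and SEP2 overlapped. None of the 7 was at 0 in every library. Of the shoot meristem markers, STM had 7.91 and 8.20 FPKM in Another Col-0, against 6.83 and 7.35 FPKM in SALK Col-0, KNAT1 had 6.64 and 5.99 FPKM in Another Col-0, against 8.46 and 8.004 FPKM in SALK Col-0, and WUS was listed at 0 in all 4 libraries. For FT, too, the part of tissue composition was not tested.

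Among the 51 other flowering genes tested, the profile closest to that of FLC was that of VIP3, a Paf1 complex gene required for FLC expression. Closeness was the root mean square distance between log2(FPKM + 1) profiles, each centred on its own mean over the 4 libraries. VIP3 had 13.0 and 16.8 FPKM in Another Col-0, against 10.5 and 13.6 FPKM in SALK Col-0, at a distance of 0.0173 from FLC. FIE and CLF came next at 0.154 and 0.169. The model holding ELF7, of the same complex as VIP3, lay at 0.330, rank 28 of the 51. Models outside the listed genes were not compared. With 4 libraries such a likeness is a description of these values only.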

How the data were processed

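The authors deposited 1 table of FPKM values with lower and upper FPKM limits and a status for each of 36251 gene models and 4 libraries, per the file headers. The submitters' processing notes name TopHat, Cufflinks, Cuffdiff and the TAIR10 build, without saying which tool did what. Libraries were 101-base single-end reads from a TruSeq RNA V2 kit, per the labels' protocols. In organelle rows the annotation fields are displaced; none is a member. 19 models whose status was not OK in some library were left out.

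Coordinates are those of the table, counted from 1. RefSeq TAIR10.1 supplied sequences and neighbouring genes, and 99.99% of 30152 single-gene nuclear models overlapped the reference gene of their identifier on the same strand. No reference table of protein sequences was used here.

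Models that averaged 1 FPKM or more were tested as log2(FPKM + 1) in limma 3.58.1 (R 4.3.3) with an intensity trend and the line as the only term, two-sided, Benjamini-Hochberg adjustment over 20634 models and a threshold of 0.05. The model had 2 residual degrees of freedom. The fit was tested on simulated data, which does not show that it could call differences as small as those of the members. Alternatives used other pseudocounts, filters on low values, scalings or model sets, dropped the trend, added a term for the replicate number, or left out 1 library. A positive difference means higher in Another Col-0, and differences on this scale understate changes of low genes. Every member was named, with FT and up to 4 genes of each list by smallest p, and the 3 listed genes closest to FLC. Others, such as FLK, SUF4, FLX, SEP3 and the antisense models, were chosen after their values were seen. The members, lists and alternatives were chosen with earlier results of these data known.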

Additional observations from a re-analysis of the deposited data

How the results depend on the processing

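With the replicate block, a model term for the replicate number, limma called 2951 models (14.3%) higher in Another Col-0 and 1673 (8.11%) lower, among them 1 member higher (FLC) and 2 lower (SVP and FRI), and 3 other flowering genes higher and 8 lower. With annotated models only, 10 models (0.0543%) were higher and 1 (0.00543%) lower, with 0 members. With annotated models only and the replicate block, 4896 models (26.6%) were higher and 3335 (18.1%) lower, among them 2 members higher (FLC and MAF4) and 4 lower (MAF2/MAF3, SVP, FRI and SOC1), and 3 other flowering genes higher and 19 lower. Libraries with the same number deviated together from their line means (r = 0.953 across 20634 models, which are not independent). Across the 18432 annotated models tested, the kind to which the members belong, r was 0.789. No label says that a number marks a shared batch, so the block is not the test reported. Other pseudocounts, filters, scalings, no trend and leaving out any library gave 0 calls. Of 429 recomputed gene differences 421 kept their direction. Other filters, model sets, the dropped trend and the replicate block leave a gene's difference unchanged by construction, so part of this count was fixed in advance. Leaving out a library moved FLM between -0.27 and 0.0057, MAF2/MAF3 between -0.45 and 0.15, FRL1 between -0.12 and 0.16 and FLX between -0.13 and 0.22, and median scaling gave -0.00034 for FRL1. The causes were not tested. MAF5 without a filter had a difference of -0.15 (limma, adjusted p = 0.722).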
